A study of Mus musculus with 6 samples.

Results

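The CCN family comprises 6 genes, *Ccn1* to *Ccn6*, formerly named *Cyr61*, *Ctgf*, *Nov*, *Wisp1*, *Wisp2* and *Wisp3*. They were taken by symbol, with earlier results of these data known. All 6 were found under the current symbols among the 53819 genes listed in the count table. The RNA came from flexor digitorum longus (FDL) tendons that had been cut and repaired, collected at D28 after surgery. Each library holds 1 tendon, and each genotype has 3 libraries. DTRScxLin mice (Scx-Cre+; DTR F/+) were compared with wildtype littermates (WT, Scx-Cre-; DTR F/+). Both genotypes carried the floxed diphtheria toxin receptor allele, and both received 5 daily injections of diphtheria toxin (DT) from D14 to D18, so Cre is the difference in genotype between the groups. The mice were males and females aged 10 to 12 weeks at surgery. Scx-Cre is not inducible, and it marks any cell whose lineage has expressed *Scx* (the tendon transcription factor Scleraxis), so the toxin reached cells by lineage and not by their expression at D14. The titles of the samples date D28 from the depletion, whereas the methods date it from surgery, and the latter is followed here.

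CCN proteins are secreted matricellular proteins: they sit in the matrix without building it, and bind integrins, proteoglycans and growth factors. They are assembled from an IGF-binding-protein-like module, a von Willebrand type C module, a thrombospondin repeat and a C-terminal cystine knot, the last of which CCN5 lacks. *Ccn1* and *Ccn2* are fast-responding targets of mechanical load, TGF-beta and the co-activators YAP and TAZ, and CCN2 is a well known driver of fibrosis. CCN3 often acts against CCN2, CCN4 and CCN5 were first described as products of Wnt-responsive genes, and loss of CCN6 in humans causes a joint cartilage disease. The longest coding length in GENCODE vM21 was 753 bases for *Ccn5* and between 1044 and 1137 bases for the other 5 genes.

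RefSeq promoters (300 bases around the start, GRCm38.p6) were matched by symbol for 2 of the 6 genes, *Ccn1* and *Ccn6*. Promoters of *Ccn2*, *Ccn3*, *Ccn4* and *Ccn5* are not shown. Both sequences are shown because they were the only ones matched, with capitals marking matches to the motifs named after them. They lie at chr3:145649936-145650235 (*Ccn1*, minus strand) and chr10:39163745-39164044 (*Ccn6*, minus strand).
*Ccn1*: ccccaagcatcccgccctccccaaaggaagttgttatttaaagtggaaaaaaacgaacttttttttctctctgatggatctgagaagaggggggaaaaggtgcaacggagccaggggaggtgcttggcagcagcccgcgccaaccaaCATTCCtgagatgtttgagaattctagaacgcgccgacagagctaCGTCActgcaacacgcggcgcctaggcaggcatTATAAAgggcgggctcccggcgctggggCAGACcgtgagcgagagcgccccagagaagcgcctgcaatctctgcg
*Ccn6*: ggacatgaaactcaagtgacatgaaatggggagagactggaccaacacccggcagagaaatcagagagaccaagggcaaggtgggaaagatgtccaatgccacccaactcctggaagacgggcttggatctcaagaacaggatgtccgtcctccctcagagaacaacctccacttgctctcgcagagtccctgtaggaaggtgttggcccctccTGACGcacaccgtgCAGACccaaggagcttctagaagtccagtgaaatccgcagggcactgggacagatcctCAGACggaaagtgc
Motifs were searched on both strands and no match overlapped another. GGAATG, the core bound by TEAD factors, occurred in *Ccn1* as its reverse complement at position -103 (first base, with the start at 0) and not in *Ccn6*. It was found in 14.7% of all 32851 promoters of this length. TATAAA occurred in *Ccn1* at position -25 and not in *Ccn6* (13.6% of all promoters). TGACG, the core of a cyclic AMP response element, occurred at -58 in *Ccn1* and -36 in *Ccn6* (20.8% of all promoters). CAGAC, a SMAD-binding core, occurred at 3 in *Ccn1* and at -22 and 36 in *Ccn6* (49.6% of all promoters). No match to the CArG box of serum response factor was in either window, against 1.63% of all promoters. A match describes letters only, and these data hold no binding measurement.

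Between 42744138 and 48854310 counts per library fell on genes. Values are counts scaled by TMM to the mean library size (normalized counts), which compare 1 gene across libraries, and levels are compared between genes only after division by exon length. All 10 genes of a tendon list (*Scx*, *Tnmd*, *Mkx* and others) were detected in every library, at a summed 2.89% to 3.45% of counts in WT and 3.49% to 3.85% in DTRScxLin tendons. Much of this sum was *Col1a1* and *Dcn*, with means of 554531 and 310762 normalized counts over the 6 libraries. Of the 10 tendon genes, 8 were fitted higher in DTRScxLin tendons and 2 lower (median log2 fold change 0.31). In 4 of them every DTRScxLin library lay above every WT library (8.97% of all genes), and in 0 below. DESeq2 called 1 higher (1.12% of all genes) and edgeR 0. Genes of other tissues were detected in every library as well, so detection alone does not identify the tissue. Other tissues were present too. A list of 20 skeletal muscle genes, all detected in every library, held 1.97% to 2.73% of counts in WT and 0.327%, 2.33% and 0.616% in DTRScxLin replicates 1 to 3. All 7 genes of a myofibroblast and smooth muscle list were detected in every library and held 0.143% to 0.204% in WT and 0.0993% to 0.131% in DTRScxLin tendons. A keratinocyte list of 15 genes held 0.00144% to 0.330% in WT and 0.00123% to 0.0311% in DTRScxLin tendons, with 10 of the 15, among them *Krt5* and *Krt14*, at 0 in at least 1 library. Of 7 adipocyte genes, 7 were fitted lower in DTRScxLin tendons (median log2 fold change -2.38), and 5 had every DTRScxLin library below every WT library (7.84% of all genes). DESeq2 called 4 of them lower (1.53% of all genes) and edgeR 0. This direction was not particular to fat. All 20 skeletal muscle, 15 keratinocyte and 7 myofibroblast and smooth muscle genes were also fitted lower (medians -1.26, -3.54 and -0.49). Of these, 6, 0 and 1 lay wholly below WT, and neither tool called any. The summed share of the adipocyte genes, 0.0117% to 0.0210% in WT and 0.00865% to 0.0146% in DTRScxLin tendons, overlapped between the groups, with *Lep* at 0 in at least 1 library. The other lists (endothelial, macrophage, Schwann and nerve, cartilage and bone, lymphoid) each held at most 0.419% of any library. In such bulk RNA, fewer cells of a type and less RNA per cell cannot be told apart.

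Of the 6 members, *Ccn1* and *Ccn4* had the largest differences, and both were higher in DTRScxLin tendons, by 1.69-fold in *Ccn1* and by 0.68 on the log2 scale in *Ccn4*. *Ccn2* and *Ccn5* were fitted higher and *Ccn3* lower, each with an interval that included no change, and *Ccn6* was barely detected. In edgeR's quasi-likelihood test with Benjamini-Hochberg adjustment over the 17496 genes tested, 0 of the 5 tested members had an adjusted p under 0.05, and edgeR called 0 genes in all (0% higher, 0% lower). At an unadjusted p under 0.05, 2 of the 5 (*Ccn1* and *Ccn4*) were higher and 0 lower, against 5.52% higher and 5.45% lower of all genes tested. DESeq2's Wald test, from the tool the study used, called the same 2 members higher at an adjusted p under 0.05, against 1.12% higher, 1.53% lower and 2.65% in either direction of the 17564 genes to which it gave an adjusted p. The median log2 fold change of the 5 members was 0.52, which is the value of *Ccn2*, against 0.0082 over all genes tested. It was 0.26 without DTRScxLin replicate 2, and with any other library left out it lay between 0.37 and 0.69.

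**Figure D1:**
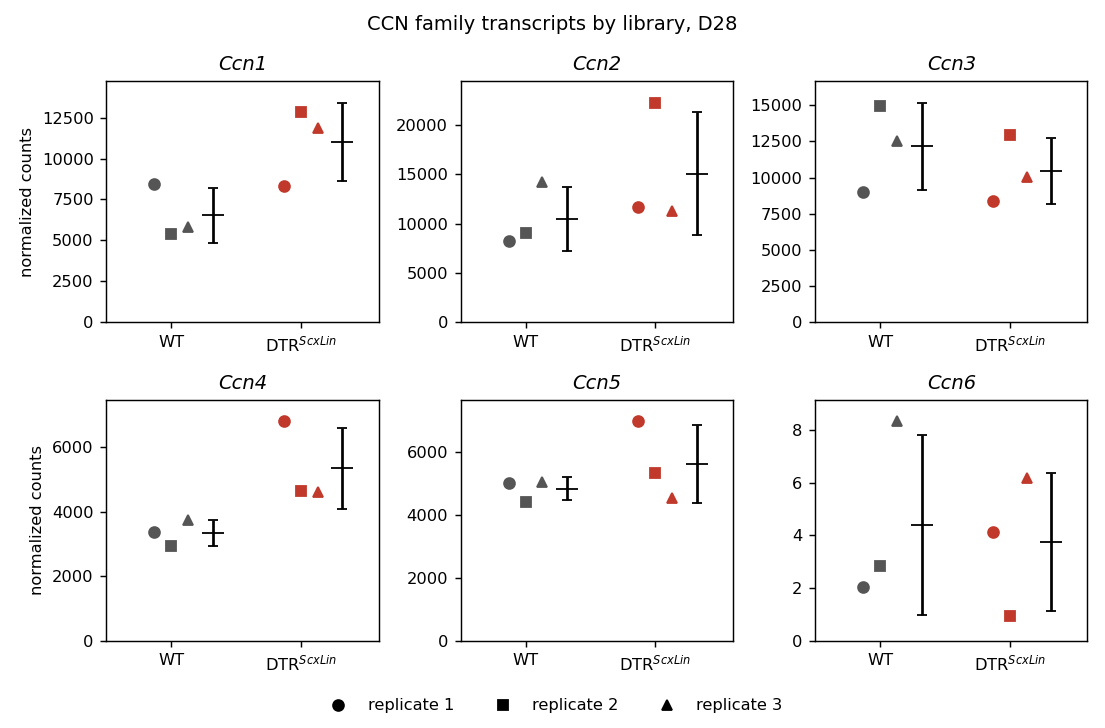
TMM-normalized counts (vertical axes, from 0, with a scale of its own in each panel) of each CCN gene in the 3 WT and 3 DTRScxLin libraries. Points are libraries with a symbol per replicate number, and black bars give the mean ± SD of 3 libraries. In *Ccn4* the 3 DTRScxLin libraries (4605 to 6801) all lie above the 3 WT libraries (2926 to 3747), and in the other 5 genes the groups overlap.

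*Ccn1* encodes the protein CCN1, a ligand of integrins alpha-v-beta-3 and alpha-6-beta-1 that acts on adhesion, migration and senescence of fibroblasts. The WT libraries (replicates 1 to 3) held 8425, 5360 and 5789 normalized counts of it, and the DTRScxLin libraries 8295, 12847 and 11861. DTRScxLin replicates 2 and 3 stood above every WT library, and DTRScxLin replicate 1 lay just under WT replicate 1, so the groups overlapped by these 2 libraries. The means were 6525 ± 1659 in WT and 11001 ± 2395 in DTRScxLin tendons (SD, n = 3 each). On the log2 scale edgeR put this difference at 0.75 (standard error 0.23, 95% interval 0.21 to 1.30, adjusted p = 0.371). DESeq2 gave 0.75 with an adjusted p of 0.0219. This call was kept in 2 of 6 refits of DESeq2 that left out 1 library: without WT replicate 1 (adjusted p = 0.000863) and without DTRScxLin replicate 1 (adjusted p = 0.00378). It was lost without WT replicate 2 (0.404), WT replicate 3 (0.151), DTRScxLin replicate 2 (0.0842) or DTRScxLin replicate 3 (0.198), these being DESeq2's adjusted p-values.

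*Ccn2* encodes connective tissue growth factor, which binds TGF-beta and induces matrix genes in fibroblasts. The WT libraries (replicates 1 to 3) held 8260, 9029 and 14255 normalized counts of it, and the DTRScxLin libraries 11678, 22255 and 11310. DTRScxLin replicate 2 held the highest value, and the other DTRScxLin libraries lay between WT replicates 2 and 3. The means were 10515 ± 3262 in WT and 15081 ± 6216 in DTRScxLin tendons (SD, n = 3 each). On the log2 scale edgeR put this difference at 0.52 (standard error 0.35, 95% interval -0.34 to 1.38, adjusted p = 0.605). Without DTRScxLin replicate 2 it was 0.13, and without WT replicate 3 it was 0.80.

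*Ccn4* encodes a matrix-bound protein that binds decorin and biglycan and promotes growth of mesenchymal cells. The WT libraries (replicates 1 to 3) held 3357, 2926 and 3747 normalized counts of it, and the DTRScxLin libraries 6801, 4642 and 4605. Each DTRScxLin library was above each WT library, and DTRScxLin replicate 1 stood well above the other libraries. *Ccn4* was the 1 member of 5 tested without overlap in this direction, against 8.97% of all genes tested, and 0 members lay wholly below WT, against 7.84%. The means were 3344 ± 411 in WT and 5349 ± 1257 in DTRScxLin tendons (SD, n = 3 each). On the log2 scale edgeR put this difference at 0.68 (standard error 0.17, 95% interval 0.27 to 1.09, adjusted p = 0.329), and without DTRScxLin replicate 1 the value was 0.46. DESeq2 gave an adjusted p of 0.0133. Its call was kept in 3 of 6 refits that left out 1 library (DESeq2's adjusted p = 0.0165 without WT replicate 3, 0.00218 without DTRScxLin replicate 2 and 0.0248 without DTRScxLin replicate 3). It was lost without WT replicate 1 (0.108), WT replicate 2 (0.291) or DTRScxLin replicate 1 (0.0724), again as DESeq2's adjusted p. In 0 of the 6 refits did DESeq2 call *Ccn1* and *Ccn4* together. These refits of DESeq2 were added after the data were seen.

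*Ccn5*, the member without the cystine knot, is expressed by vascular smooth muscle and fibroblasts and restrains their growth. The WT libraries (replicates 1 to 3) held 5023, 4407 and 5049 normalized counts of it, and the DTRScxLin libraries 6969, 5326 and 4541. DTRScxLin replicate 1 was the highest library and DTRScxLin replicate 3 lay within the WT range. The means were 4826 ± 363 in WT and 5612 ± 1239 in DTRScxLin tendons (SD, n = 3 each). On the log2 scale edgeR put this difference at 0.22 (standard error 0.16, 95% interval -0.15 to 0.58, adjusted p = 0.618), and at 0.028 without DTRScxLin replicate 1.

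*Ccn3*, whose product lowers growth and matrix output in many cells, was the only tested member fitted lower in DTRScxLin tendons. The WT libraries (replicates 1 to 3) held 8986, 14958 and 12515 normalized counts of it, and the DTRScxLin libraries 8392, 12912 and 10023. Replicate 1 was the lowest library and replicate 2 the highest in each group, and the groups overlapped. The means were 12153 ± 3002 in WT and 10442 ± 2289 in DTRScxLin tendons (SD, n = 3 each). On the log2 scale edgeR put this difference at -0.22 (standard error 0.23, 95% interval -0.75 to 0.32, adjusted p = 0.738). Without WT replicate 2 it was -0.042, and without DTRScxLin replicate 2 it was -0.40.

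*Ccn6* had raw counts of 2, 3 and 8 in the WT libraries (replicates 1 to 3), against 4, 1 and 6 in the DTRScxLin libraries, and did not pass edgeR's filter on low counts. The groups covered nearly the same range, and at so few reads no fold change is given. A difference between genotypes was not detectable for *Ccn6* at this depth.

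**Figure D2:**
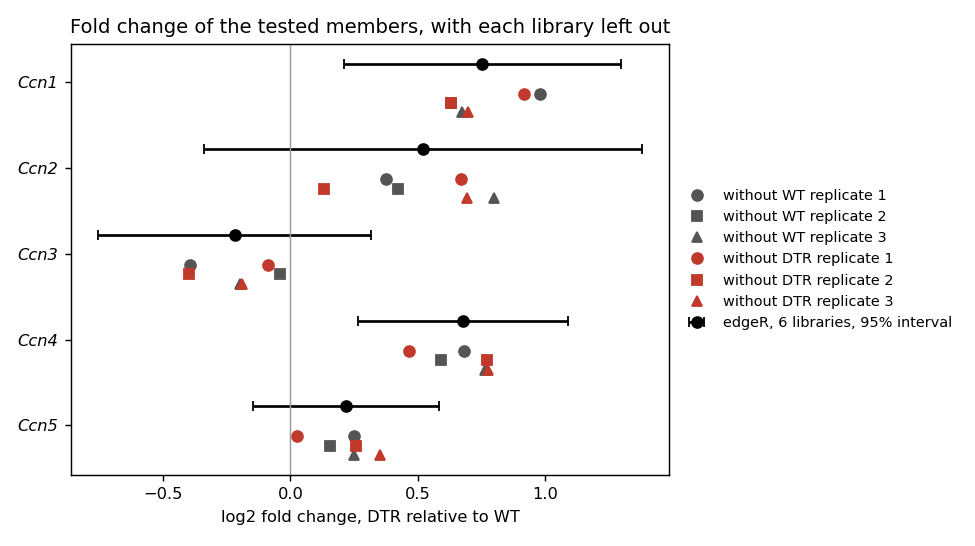
Log2 fold change of DTRScxLin relative to WT (horizontal axis) for the 5 tested CCN genes. Black circles with bars are edgeR's value over 6 libraries with its 95% interval, and coloured symbols are edgeR's value with the named library left out. *Ccn1* stays between 0.63 and 0.98 and *Ccn4* between 0.46 and 0.78, whereas *Ccn2* falls to 0.13 without DTRScxLin replicate 2 and *Ccn5* to 0.028 without DTRScxLin replicate 1.

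The highest DTRScxLin library was not the same for every member. *Ccn1*, *Ccn2* and *Ccn3* were highest among the DTRScxLin libraries in replicate 2, where skeletal muscle genes held 2.33% of counts. *Ccn4* and *Ccn5* were highest in replicate 1, where skeletal muscle genes held 0.327%. In WT replicates 1 to 3, skeletal muscle genes held 2.73%, 2.45% and 1.97%. There *Ccn1* was highest in replicate 1, *Ccn3* in replicate 2, and *Ccn2*, *Ccn4* and *Ccn5* in replicate 3. These orders were not tested. With the muscle level as a covariate, edgeR's log2 fold change was 1.09 for *Ccn1*, 0.96 for *Ccn2*, 0.062 for *Ccn3*, 0.40 for *Ccn4* and 0.074 for *Ccn5*, with adjusted p-values from 0.737 to 0.977. Of the DTRScxLin libraries, only replicate 2 had a muscle share within the WT range. This fit therefore cannot separate muscle level from genotype. With the level of *Xist* as a covariate, since mice of both sexes were used, the 5 values in the same order were 0.71, 0.47, -0.38, 0.81 and 0.32. The part of the adipocyte and other cell type lists in these results was not tested.

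Per kilobase of exon (union of GENCODE vM21 exons, matched by symbol), 3 members were at similar levels. *Ccn1* had 3232 ± 822 normalized counts per kilobase in WT and 5449 ± 1186 in DTRScxLin tendons, *Ccn2* 3675 ± 1140 and 5271 ± 2173, and *Ccn3* 4236 ± 1046 and 3640 ± 798 (SD, n = 3 each). The ranges of these 3 genes overlapped within each group, so their order is not resolved beyond the spread. *Ccn5* followed with 2508 ± 189 and 2917 ± 644, below *Ccn1* and *Ccn2* in 6 of 6 libraries and below *Ccn3* in 5 of 6. *Ccn4* stood apart at 601 ± 73.8 and 961 ± 226, below these 4 genes in every library, and *Ccn6* was at most 5.86 per kilobase in any library. *Ccn3* was above *Ccn1* in 2 of 3 WT libraries and in 0 of 3 DTRScxLin libraries, and likewise above *Ccn2* in 2 of 3 and 0 of 3. These counts describe 3 libraries a group and were not tested. *Ccn1*, *Ccn2* and *Ccn3* lay at percentiles 97.8, 97.9 and 97.6 of the tested genes on this scale, *Ccn5* at 96.2 and *Ccn4* at 84.9.

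**Figure D3:**
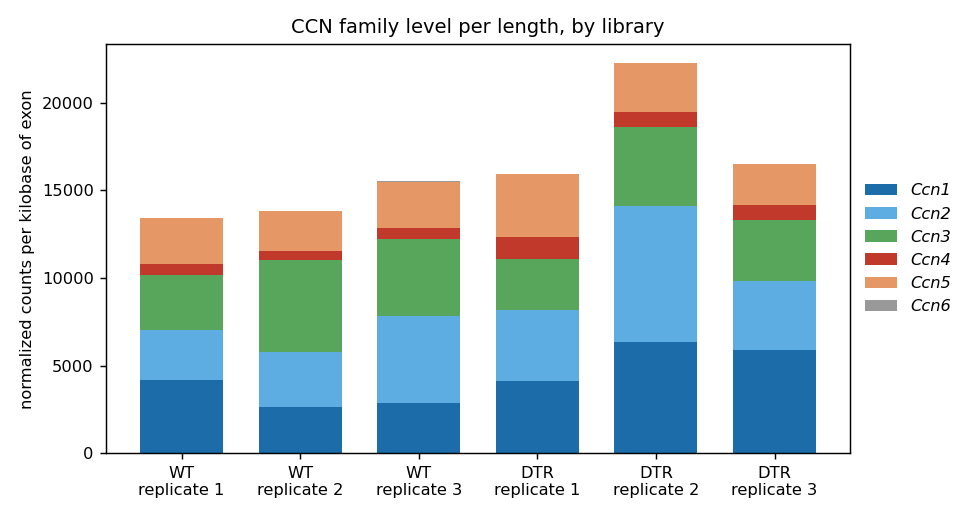
Normalized counts per kilobase of exon (vertical axis, from 0) of the 6 CCN genes, stacked for each of the 3 WT and 3 DTRScxLin libraries (horizontal axis). The stacks reach 13407 to 15515 in WT and 15962 to 22245 in DTRScxLin libraries, with the highest in DTRScxLin replicate 2; *Ccn6* is too low to be seen.

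Summed over the 6 genes, the level per kilobase was 14255 ± 1113 in WT and 18240 ± 3479 in DTRScxLin tendons (SD, n = 3 each). Of this sum, *Ccn1* made up 31.1%, 19.2% and 18.5% in the WT libraries (replicates 1 to 3), against 25.7%, 28.6% and 35.6% in the DTRScxLin libraries. *Ccn3* made up 23.4% to 37.7% in WT and 18.3% to 21.2% in DTRScxLin libraries, without overlap between the groups, although its own level overlapped. *Ccn4* held 3.80% to 4.50% in WT and 7.66%, 3.75% and 5.01% in DTRScxLin replicates 1 to 3. Shares of a sum depend on each other, and no test was applied to them.

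The genes on which CCN proteins act, and those that share their regulators, were examined by list. In edgeR's test, 0 genes of the lists in this and the following paragraphs had an adjusted p under 0.05 in either direction. The lists were written with earlier results of these data known. Of 18 tested receptors and binding partners, 13 were fitted higher and 5 lower, with a median log2 fold change of 0.15, and 1 gene, *Itgav*, was higher at an unadjusted p under 0.05, a share near the 5.52% of all genes tested. Without DTRScxLin replicate 1 the median was 0.039. *Itgav*, the alpha-v integrin subunit through which several CCN proteins bind cells, was counted at 4374, 4492 and 4277 (normalized) in the WT libraries and 6096, 5148 and 5196 in the DTRScxLin libraries, each from replicate 1 to replicate 3. Each DTRScxLin library was above each WT library (log2 fold change 0.32, standard error 0.092, edgeR's adjusted p = 0.347). It was the 1 gene of 18 wholly above WT, against 8.97% of all genes tested, and 0 lay wholly below, against 7.84%. Its partner *Itgb1* overlapped at 0.29, *Itgam* was at 0.19, and *Fgfr2*, an FGF receptor that CCN2 can bind, was lowest at -0.34 with a standard error of 0.60.

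Among 21 regulators of YAP, TAZ, TEAD and MRTF/SRF activity the median was -0.0060, with 3 genes higher and 1 lower at an unadjusted p under 0.05, against 5.52% and 5.45% of all genes tested. Without DTRScxLin replicate 1 the median was -0.086, and without DTRScxLin replicate 3 it was 0.041. The YAP gene *Yap1* was at -0.0031 and the TAZ gene *Wwtr1* at 0.15. *Vgll3*, a TEAD cofactor, was at 0.42 (standard error 0.11), and *Stk3*, a Hippo kinase, at 0.26 (0.097), each without overlap between groups. Of the 21 regulators, 3 lay wholly above WT and 1 wholly below, against 8.97% and 7.84% of all genes tested. *Tead4* was counted at 580, 558 and 385 (normalized) in the WT libraries and 186, 360 and 286 in the DTRScxLin libraries, each from replicate 1 to replicate 3, all below WT (-0.87, standard error 0.27), and DESeq2 called it lower (adjusted p = 0.0438). The 20 other YAP/TAZ target genes had a median of 0.079 (-0.014 without DTRScxLin replicate 1), with 13 fitted higher and 7 lower. *Nt5e*, which encodes the ecto-enzyme CD73, was the highest of them at 0.73 (standard error 0.14) and was called by DESeq2 (adjusted p = 0.000706), *Amotl2* was at 0.44 and *Nuak2* at 0.36, and *Gadd45a* was the lowest at -0.37 (standard error 0.68). *Ankrd1*, a target often measured with *Ccn1* and *Ccn2*, was at 0.055.

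The 13 TGF-beta ligands, receptors and SMADs had a median of 0.10 (0.025 without DTRScxLin replicate 1), with 10 fitted higher and 3 lower. The type II receptor gene *Tgfbr2* was at 0.26 (standard error 0.10) without overlap, and so was *Smad2* at 0.13. These were the 2 of 13 wholly above WT, with 0 wholly below, against 8.97% and 7.84% of all genes tested. The binding proteins *Ltbp1* and *Ltbp2* were at 0.31 and 0.44 with overlap, *Smad3* was lowest at -0.11, and the ligand gene *Tgfb1* was at -0.0025. The 15 other TGF-beta responsive genes had a median of 0.32, with 11 higher and 4 lower in the fit, and the median was 0.084 without DTRScxLin replicate 1. *Postn*, which encodes the matrix protein periostin, was at 0.67 (standard error 0.23), and *Lox*, which encodes a collagen cross-linking enzyme, was at 0.66 (0.13). DESeq2 called both higher (its adjusted p = 0.0364 and 5.78e-06), whereas edgeR's adjusted p was 0.398 and 0.274. In all, DESeq2 called 3 of the 15 genes higher and 0 lower, against 1.12% and 1.53% of all genes. At edgeR's unadjusted p under 0.05, 4 of the 15 were higher and 0 lower, against 5.52% and 5.45%. Wholly above WT lay 4 and wholly below 0, against 8.97% and 7.84%. The study drew *Postn* and *Lox* from these libraries, so they are no independent evidence of direction. *Acta2*, the gene of the myofibroblast actin, was lowest at -0.37 with overlap. The 13 Wnt response genes, listed because *Ccn4* and *Ccn5* are Wnt-responsive, had a median of -0.033, with 0 higher and 2 lower at an unadjusted p under 0.05, against 5.52% and 5.45% of all genes tested. Their median was 0.13 without DTRScxLin replicate 2. *Axin2*, a direct readout of the pathway, was counted at 617, 610 and 625 (normalized) in the WT libraries and 413, 510 and 501 in the DTRScxLin libraries, each from replicate 1 to replicate 3, without overlap (-0.38, standard error 0.12, edgeR's adjusted p = 0.386). Of the 13 Wnt response genes, 1 lay wholly above WT and 2 wholly below, against 8.97% and 7.84% of all genes tested. *Notum*, a secreted Wnt inhibitor of few counts, was at -0.99 (standard error 0.41), *Tcf7* at -0.41, *Tcf7l2* at 0.28 and *Lgr5* at 0.45. The 6 tested IGF-binding protein genes, whose products share the first CCN module, had a median of 0.072 (-0.093 without DTRScxLin replicate 1) with 3 higher and 3 lower in the fit, from -0.87 for *Igfbp2* (standard error 1.19) through *Igfbp7* at -0.14 and *Igfbp5* at 0.23 to 0.25 for *Igfbp6*.

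**Figure D4:**
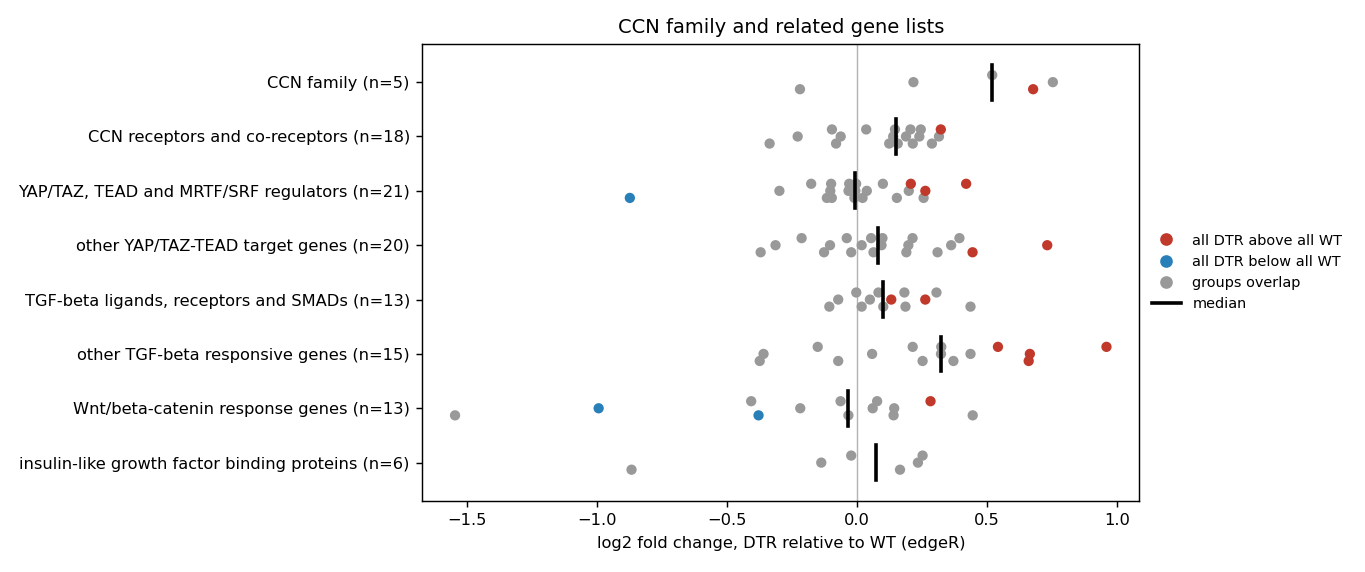
Log2 fold change of DTRScxLin relative to WT by edgeR (horizontal axis) for each tested gene of the CCN family and of 7 related lists (rows). Each point is a gene, coloured by whether the 3 DTRScxLin libraries all lie above or below the 3 WT libraries, and black bars are medians. The CCN family median is 0.52, that of the other TGF-beta responsive genes 0.32 (0.26 without DTRScxLin replicate 2 and 0.084 without DTRScxLin replicate 1, respectively), and the medians of the remaining lists lie between -0.033 and 0.15.

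For each tested member, the 3 genes with the highest Pearson correlation of log2 CPM over the 6 libraries were found among 14408 genes with at least 50 normalized counts on average, as a description of likeness in libraries that share genotype and tissue differences. For *Ccn1* they were *Fam131b*, *Zfp955a* and *Ddx60*, for *Ccn2* *Coq10b*, *Ddx31* and *Vamp4*, and for *Ccn3* *Uap1*, *Ltbp4* and *Kcnc2*. For *Ccn4* they were *Sec23ip*, *Plce1* and *Nus1*, and for *Ccn5* *Dtd1*, *Rab7* and *Snx17*. These correlations ran from 0.981 to 0.998. The highest of 14408 correlations over only 6 libraries can be this large without any link between the genes. The names are therefore no evidence of shared regulation, which was not tested. None of the 15 genes was shared between members or was itself a CCN gene.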

How the data were processed

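RNA-seq libraries of FDL tendons from 3 DTRScxLin and 3 WT mice were analysed. The authors demultiplexed single-end reads with bcl2fastq 2.19.0, cleaned them with FastP 0.20.0, used featureCounts (subread 1.6.4) for quantification, and deposited raw counts per gene. A signal table that the authors deposited beside them was checked here to equal the counts divided by 1 size factor per library (0.973 to 1.06), as DESeq2 1.22.1 gives. Aligner, genome build, annotation and strand setting are not given in the sources used here, so overlapping genes are uncertain. The labels name a TruSeq Stranded and a SMARTER kit.

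The genotype and replicate of each column came from the labels. In R 4.3.3, 17496 of 53819 genes passed filterByExpr in edgeR 4.0.16 and were fitted with TMM factors and a robust quasi-likelihood model with genotype as the single term. Standard errors were derived from the F statistic, and intervals use the model's degrees of freedom. Benjamini-Hochberg adjustment ran over all genes tested with a threshold of 0.05. The fits were tested on simulated data. At a simulated log2 change of 1, edgeR recovered 48 of 109 changed genes and DESeq2 68 of 111 at an adjusted p under 0.05. At a change of 2, edgeR recovered 69 of 86 and DESeq2 73 of 89. In this simulation edgeR thus left many changes of 1 uncalled. The fitted changes of the CCN genes were smaller, at most 0.75, and the simulated libraries had no differences in tissue content. How often real changes of that size go uncalled was therefore not measured. False calls are not given here, so these values do not rank the 2 tools. The members, lists and tests were chosen with earlier results of these data known. Named genes were all CCN members, in each list the largest and smallest log2 fold change among genes averaging 50 or more normalized counts, the 3 smallest p-values, and the 3 genes most like each member; others (*Yap1*, *Wwtr1*, *Ankrd1*, *Tgfb1*) were named after their values were seen. A gene that this rule names is not reported here. Promoter motifs were also chosen then.

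Replicate libraries of a group differed far beyond counting noise (chi-square of 36.6 to 190 per degree of freedom), so 3 animals a group limit the precision. Alternatives were DESeq2 1.42.0, limma-voom and log2(normalized count + 1) in limma 3.58.1, RLE, upper quartile or library size scaling, no filter or a minimum of 10 counts per library, a block for replicate number, omission of each library in turn, removal of muscle and keratinocyte genes, muscle or *Xist* level as a covariate, and no robust option.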

Additional observations from a re-analysis of the deposited data

How the results depend on the processing

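Over 18 alternatives other than DESeq2, edgeR or limma called no CCN gene (adjusted p from 0.0961 to 0.986), and the log2 fold change ran from 0.63 to 1.09 for *Ccn1*, 0.13 to 0.96 for *Ccn2*, -0.40 to 0.062 for *Ccn3*, 0.40 to 0.81 for *Ccn4* and 0.028 to 0.35 for *Ccn5*. The direction turned once, for *Ccn3*, at 0.062 with the muscle covariate; the cause was not tested. DESeq2's Wald test called 2 members, *Ccn1* at 0.75 and *Ccn4* at 0.68. With 1 library left out, edgeR called 0 members and DESeq2 0 to 1, at DESeq2 log2 fold changes of 0.62 to 0.98 for *Ccn1* (called at 0.98 and 0.92) and 0.46 to 0.77 for *Ccn4* (called at 0.76, 0.77 and 0.77). Over all genes, edgeR's 0 calls were 83 with no filter on low counts and 1 with the replicate block, and 0 to 544 with 1 library left out (544 without DTRScxLin replicate 2), at 1918 genes with an unadjusted p under 0.05 in the main fit. DESeq2 called 466 genes, and without WT replicates 1 to 3 in turn 259, 147 and 861, and without DTRScxLin replicates 1 to 3 in turn 227, 1558 and 404. limma-voom called 0 genes, with 1998 at an unadjusted p under 0.05. The replicate numbers did not pair the libraries (correlations of deviations -0.19, -0.15 and -0.68, with 0 of 3 best with their own number), and the block called no CCN gene. The muscle covariate, which was largely tied to genotype, moved 4 of 7 list medians beyond the spread between replicates. They moved to -0.067 for receptors, -0.072 for YAP/TAZ targets, -0.098 for the TGF-beta pathway and -0.19 for TGF-beta responsive genes. Medians also moved with single libraries: without DTRScxLin replicate 1 they were 0.039, -0.014, 0.025 and 0.084 in the same order and -0.093 for IGF-binding proteins, so that 2 of these 5 turned in sign. The median of the CCN family was 0.26 without DTRScxLin replicate 2. *Ccn6* has no fitted value because of its few counts. With 3 libraries a group, an interval as wide as that of *Ccn2* leaves changes of either sign possible.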

Other observations

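The levels of the members were compared with each other over the 6 libraries as log2 CPM, in 10 pairs. The pair most alike was *Ccn4* and *Ccn5*, with Pearson's r = 0.827 (exact permutation p = 0.0458, 0.458 adjusted over the 10 pairs) and Spearman's rho = 0.829 (exact permutation p = 0.0583, 0.583 adjusted). Without the 2 libraries farthest from the median of *Ccn4*, r was -0.17. Leaving out extreme libraries narrows the range of a gene and leaves few points, so such values do not show what a correlation rests on. *Ccn1* and *Ccn2*, which share regulators, had r = 0.479 (exact permutation p = 0.357, 0.631 adjusted) and rho = 0.314 (exact permutation p = 0.564, 0.705 adjusted), and r = -0.44 without the 2 libraries farthest from the median of *Ccn1*. By either measure 0 of the 10 pairs passed an adjusted p of 0.05 (exact permutation tests, two-sided).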
